A study of Arabidopsis thaliana with 12 samples.

Results

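The transcripts that still responded to indole-3-butyric acid (IBA) in root tips of the Arabidopsis thaliana triple mutant ibr1ibr3ibr10 were described from 6 of the 12 arrays of a series on Col-0 and this mutant. The arrays were chosen by their labels: 3 of ibr1ibr3ibr10 on 10 µM IBA and 3 of ibr1ibr3ibr10 on the control medium with DMSO. The description covers the 13350 genes that have a probe set naming only them, and the tests ran over all 22746 probe sets that are not controls. All seedlings were harvested 3 days after germination, after 6 h on the medium, and about 4 mm of each root tip was cut for RNA. Each replicate pooled at least 120 root tips, and the labels call the 3 replicates of a group independent. The titles of the DMSO samples read 0 h and those of the mutant name only ibr3, but the treatment and genotype labels give 6 h and the triple mutant, which were used. The mutant alleles are not given in the sources used here, and IBR1, IBR3 and IBR10 have no probe set that names 1 gene, so the mutations were not analysed here. In tissue of many cell types, fewer cells of a type and less RNA per cell cannot be told apart.

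IBA is an auxin precursor. Peroxisomes shorten its side chain by steps like those of fatty acid beta-oxidation and release indole-3-acetic acid (IAA), the main active auxin, and IBR1, IBR3 and IBR10 are enzymes of that route. IAA is perceived in the nucleus, where it triggers the breakdown of Aux/IAA repressors and so raises genes of auxin inactivation (GH3 enzymes) and of lateral root founding (LBD factors). Plants also handle foreign or surplus organic acids by conjugating them to sugars or glutathione with UDP-glycosyltransferases and glutathione transferases. IBA and IAA were not measured here, so how much conversion remained in the mutant was not tested.

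Values are log2 expression, the changes are IBA minus DMSO on that scale with standard errors (SE), and a gene is called where limma's two-sided test gave a Benjamini-Hochberg adjusted p under 0.05. The arrays of the mutant are written DMSO 1 to DMSO 3 and IBA 1 to IBA 3. Arrays of 1 group were alike, with r between 0.995 and 0.998 over the probe sets (not independent replicates). No detection calls were used here. A mean below 3.24, under which 30% of probe sets lie on average, is called dim, and 4516 of the 13350 genes were dim on both media in the mutant.

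In ibr1ibr3ibr10, 596 genes rose on IBA, or 4.46% of those measured, and 493 fell, or 3.69%. Over all probe sets 1248 rose (5.49%) and 881 fell (3.87%). The rises were mostly moderate, with a median of 0.51 among the called genes and 60 of 596 reaching 1 log2 unit. The falls were smaller, with a median of -0.38 and 22 of 493 reaching 1. The arrays on IBA did not overlap those on DMSO for all 596 rises and for 489 falls. A call on these same arrays nearly fixes that, and the share of all genes without overlap was not counted, so nothing is read from it. Without DMSO 2 the rises numbered 354. The falls numbered 304 without DMSO 1, 204 without DMSO 2, 267 without DMSO 3, 295 without IBA 1 and 214 without IBA 3, and 468 of the 1089 called genes were called whichever array was left out. With each array scaled to its poly-A spike-in controls, 361 rises and 66 falls were called.

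The largest rises were led by AT1G68620, which read 3.66, 3.10 and 3.07 on DMSO and 5.41, 5.32 and 5.63 on IBA, a change of 2.18 (SE 0.22, adjusted p = 3.33e-05). The groups lay far apart and the arrays on IBA spanned a narrower range than those on DMSO. AT1G60750 rose by 2.15 (SE 0.15), AT2G41810 by 2.13 (SE 0.34) and AT3G61390 by 1.94 (SE 0.15), the last from a dim mean, with 1.66 left when that mean is raised to the dim level. Among the 15 largest rises only FDH, a formate dehydrogenase of mitochondria, and AER, an alkenal reductase that detoxifies reactive carbonyls, carry a gene symbol. The other 9 were AT2G43890, AT5G14130, AT3G50400, AT2G37870, AT1G62510, AT2G22510, AT5G59540, AT5G08250 and AT1G21680, with changes from 1.43 to 1.62. The call of AT2G22510 held only with all arrays or without DMSO 1 (adjusted p up to 0.112 without 1 of the others).

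The largest fall was that of AT1G34510, which read 5.97, 5.86 and 6.24 on DMSO and 3.41, 3.84 and 3.00 on IBA, a change of -2.61 (SE 0.18, adjusted p = 2.94e-06), or 6.09-fold lower. AT1G34330 fell by 2.11 (SE 0.13) to a dim mean, AT4G25790 by 1.67 (SE 0.14), AT5G04120 by 1.37 (SE 0.18) and AT1G33700 by 1.32 (SE 0.10). The largest rises and falls were picked among called genes whose arrays do not overlap, so nothing is read from the lack of overlap. The 15 largest falls include AT5G19800, annotated as hydroxyproline-rich glycoprotein 2, with -1.18, and WES1 (GH3.5), which joins IAA to amino acids. The other 8 were AT1G23160, AT4G33730, AT3G20460, AT1G66800, AT2G19410, AT3G07070, AT5G24880 and AT4G30320, with changes from -1.27 to -1.08, and none of the 15 calls ended when 1 array was left out.

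**Figure D1:**
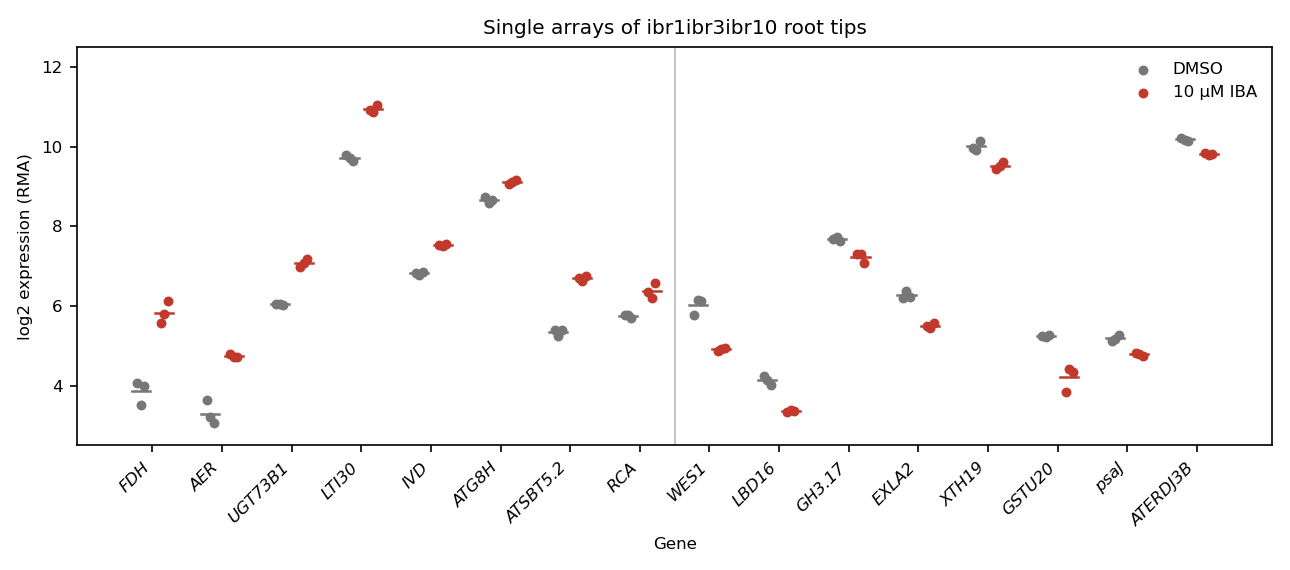
Log2 expression (RMA) of 16 genes on the single ibr1ibr3ibr10 arrays, with grey points for the 3 arrays on DMSO, red points for the 3 on 10 µM IBA and bars for group means. The 8 genes left of the line rose and the 8 on the right fell. In each of the 16 the groups do not overlap, which a call nearly fixes. FDH goes from 3.50 to 4.08 on DMSO to 5.57 to 6.12 on IBA.

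Genes of conjugation and detoxification rose more often than they fell. Of 51 measured UDP-glycosyltransferases, which attach sugars to small molecules, 9 rose (17.6%, against 4.46% of all genes) and 1 fell, while their median change was 0.01 against -0.02 over all genes. UGT73B1 read 6.05, 6.05 and 6.02 on DMSO and 6.97, 7.08 and 7.18 on IBA, a change of 1.03 (SE 0.10, adjusted p = 1.94e-05). Further UGT73 members rose, the adjacent genes UGT73B4 by 0.62 (SE 0.09) and UGT73B5 by 0.69 (SE 0.08), and UGT73D1 by 0.69 (SE 0.12). UGT87A2 rose by 0.64, and GT72B1, which conjugates chlorinated phenols and anilines, by 0.37 (SE 0.07). The remaining rises were UGT76E12 from a dim mean (0.51, with 0.10 left at the dim level), UGT76B1 (0.39), which glucosylates salicylic acid and isoleucic acid, and UGT74D1 (0.26), which glucosylates auxins. These last calls rest on single arrays: UGT76E12 lost its call without DMSO 2 (adjusted p = 0.0663), UGT76B1 without IBA 1, IBA 2 or DMSO 3 (up to 0.0824) and UGT74D1 without any 1 of the 6 (up to 0.127). The fall was that of UGT72E3 (-0.42, SE 0.09), which glucosylates lignin precursors, with a further fall called without IBA 2, and UGT78D1 had the lowest estimate (-0.45, adjusted p = 0.161). IAGLU, annotated as an indole-3-acetate glucosyltransferase and named after its value was seen, rose by 0.68 (SE 0.08, adjusted p = 0.000201). Spike scaling left 6 rises of the list and ended the calls of UGT74D1 (adjusted p = 0.379), UGT76B1 (0.121), GT72B1 (0.131) and UGT72E3 (0.475).

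Glutathione transferases moved both ways: of 14 measured, 3 rose (21.4%) and 2 fell (14.3%), with a median change of 0.13. GSTU25 read 11.03, 11.03 and 10.91 on DMSO and 11.58, 11.51 and 11.56 on IBA, a change of 0.56 (SE 0.07), whereas its neighbour on chromosome 1, GSTU26, read 9.53, 9.57 and 9.81 and then 9.17, 9.23 and 9.10, a change of -0.47 (SE 0.10). These adjacent genes were thus called in opposite directions. The same was seen for GSTU22 (0.64, SE 0.09) and GSTU20 (-1.05, SE 0.14), which are separated by 1 gene. GSTU16 rose by 0.70 (SE 0.09). Without DMSO 3 the call of GSTU26 ended (adjusted p = 0.0534), which left 1 fall, and spike scaling ended it as well (adjusted p = 0.309).

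Cytochrome P450 genes, whose products oxidise small molecules, gave 4 rises (16.7%) and 2 falls (8.33%) among 24 measured of 240 annotated. The 4 rises were of the CYP71B subfamily, but members known only by a locus can be missing from the list. CYP71B23 rose by 0.81 (SE 0.15), CYP71B29 by 0.73 (SE 0.08), its neighbour CYP71B28 by 0.55 from a dim mean (0.31 left at the dim level) and CYP71B6 by 0.34. CYP84A4 fell (-0.62, SE 0.12), as did CYP51G2 (-0.46). The calls of CYP71B28 (without DMSO 1, IBA 1, IBA 2 or DMSO 3; adjusted p up to 0.155), CYP71B6 (without any 1 array but DMSO 1; up to 0.186) and CYP51G2 (without IBA 2, DMSO 3 or IBA 3; up to 0.0688) rest on single arrays. Of 9 measured oxidoreductases of reactive carbonyls, AER and the stress-inducible aldehyde dehydrogenase ALDH7B4 rose (22.2%). AER read 3.63, 3.21 and 3.06 on DMSO and 4.80, 4.72 and 4.71 on IBA, a change of 1.45 (SE 0.12), and ALDH7B4 changed by 0.42 (SE 0.07). The lowest estimate of that list was -0.22 for ALDH3F1 (adjusted p = 0.182). Spike scaling ended the calls of CYP71B6, CYP51G2, CYP84A4 and ALDH7B4 (adjusted p from 0.0595 to 0.35).

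Among 17 measured thioredoxins, glutaredoxins and enzymes of ascorbate and glutathione, 2 rose (11.8%) and 0 fell, with a median change of 0.05. GRX480 (ROXY19), a glutaredoxin that binds TGA transcription factors, rose by 0.84 (SE 0.12, adjusted p = 0.000486) and the glutathione reductase GR1 by 0.34 (SE 0.08). GR1 lost its call without DMSO 3 or IBA 3 (adjusted p up to 0.07), and TO2 had the lowest estimate (-0.18, adjusted p = 0.171). Further reductases outside the lists, named after their values were seen, also rose. They were the alkenal/one oxidoreductase AOR (0.44), the methionine sulfoxide reductase MSRB3 (0.38) and the quinone reductase NQR (0.30), whose second probe set did not pass (0.05, adjusted p = 0.779). AOR lost its call without IBA 1 or DMSO 2 (adjusted p up to 0.0642) and NQR without any 1 array but IBA 2 (up to 0.107). The calls of GR1 (adjusted p = 0.2), MSRB3 (0.12) and NQR (0.306) ended under spike scaling.

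**Figure D2:**
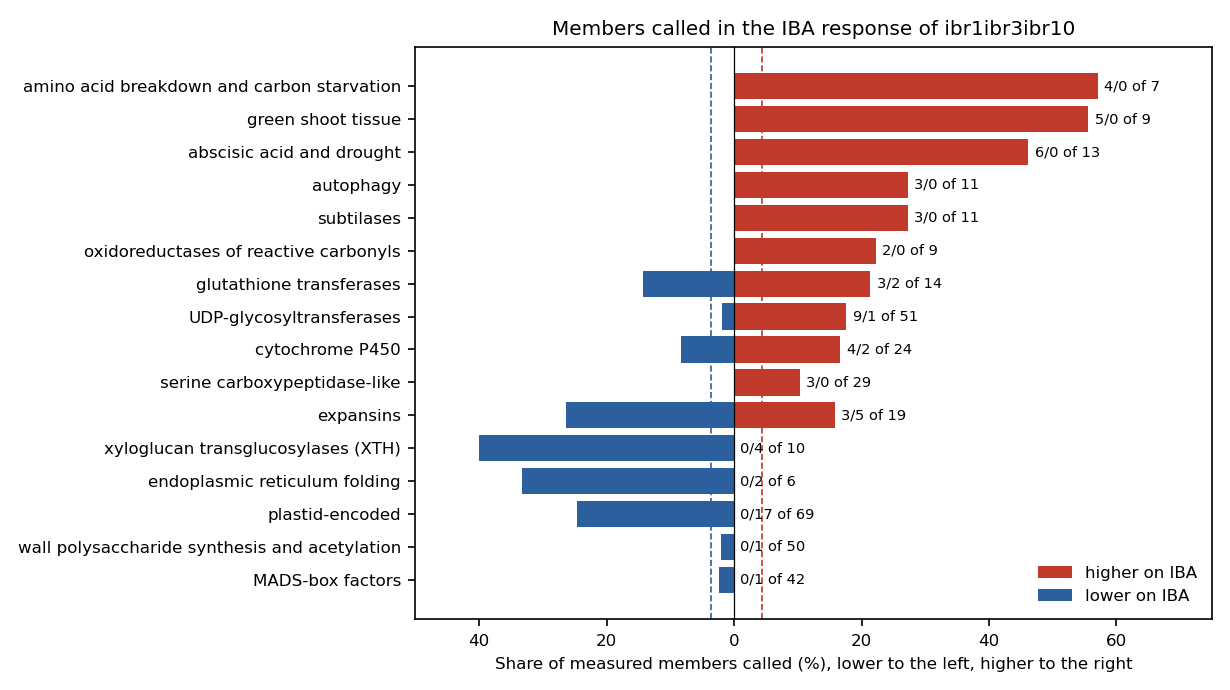
Share of the measured members of 16 gene lists called higher (red, to the right) or lower (blue, to the left) on IBA in ibr1ibr3ibr10, with the counts higher/lower of measured. Dashed lines mark the shares over all 13350 genes, 4.46% higher and 3.69% lower. The wall polysaccharide and MADS-box lists hold 0 rises and 1 fall each, too few to set apart from these shares.

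FDH rose from 4.08, 3.50 and 3.98 on DMSO to 5.57, 5.79 and 6.12 on IBA, a change of 1.98 (SE 0.15, adjusted p = 4.1e-06) or 3.94-fold. It is the only large rise in a list of 6 measured genes of mitochondrial stress, in which the alternative NAD(P)H dehydrogenase NDB2 rose by 0.29 and its relative NDB4 fell from 5.19, 5.12 and 4.97 to 4.17, 4.33 and 4.37. NDB4 thus changed by -0.81 (SE 0.12, adjusted p = 0.000556). The call of NDB2 was lost without any 1 array but DMSO 2 (adjusted p up to 0.128). Of 17 measured genes of the citric acid cycle and citrate lyase 0 rose and 1 fell, the succinate dehydrogenase subunit SDH1-2 (-0.50), which lost its call without DMSO 1, IBA 1, DMSO 2 or IBA 3 (up to 0.0888). Neither NDB2 nor SDH1-2 was called under spike scaling (adjusted p = 0.28 and 0.278). None of 16 measured mitochondrially encoded genes was called (median -0.10), too few to set apart from the 4.46% and 3.69% of all genes.

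Breakdown of amino acids, which feeds electrons to mitochondria when carbon is short, gave 4 rises and 0 falls among 7 measured genes (57.1%, against 4.46% of all genes), with a median change of 0.35. The isovaleryl-CoA dehydrogenase gene IVD, of leucine and valine breakdown, read 6.82, 6.78 and 6.86 on DMSO and 7.52, 7.51 and 7.56 on IBA. Its groups stood apart by far more than the spread within them, a change of 0.71 (SE 0.07, adjusted p = 4.51e-05). The lysine-degrading enzyme AT4G33150 (LKR/SDH) rose by 0.88 (SE 0.10), the methylcrotonyl-CoA carboxylase subunit MCCA by 0.43 (SE 0.08) and the 2-hydroxyglutarate dehydrogenase D2HGDH by 0.35. D2HGDH lost its call without any 1 of the 6 arrays (adjusted p up to 0.142), and spike scaling ended it (0.182) and that of MCCA (0.0541). MCCB, the other subunit of the carboxylase, changed by 0.02 (SE 0.10, adjusted p = 0.939), and PPDK had the lowest estimate (-0.09, adjusted p = 0.612). IVD, MCCA and D2HGDH are also the 3 genes that rose among 8 on electron transfer from amino acid breakdown (37.5%). The methionine gamma-lyase MGL, outside the lists and named after its value was seen, rose by 1.10 (SE 0.14).

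Peroxisomes gave little: of 4 measured genes of beta-oxidation and import, the isocitrate lyase ICL of the glyoxylate cycle rose by 0.70 (SE 0.20) and PEX4, a peroxisomal import component, had the lowest estimate (-0.03, adjusted p = 0.886). The call of ICL was lost without any 1 array but DMSO 1 (adjusted p up to 0.154). Of 11 measured autophagy genes, whose products enclose cell contents for breakdown in the vacuole, 3 rose (27.3%) and 0 fell, all of the ATG8 family that coats autophagosomes, with a median of 0.28 over the 11. ATG8H read 8.73, 8.59 and 8.66 on DMSO and 9.05, 9.12 and 9.15 on IBA, a change of 0.45 (SE 0.09, adjusted p = 0.00488). ATG8E changed by 0.59 (SE 0.15), ATG8F by 0.44 (SE 0.10) and ATG8G by -0.01 (adjusted p = 0.947). Only ATG8H was called without DMSO 2 (ATG8F, adjusted p = 0.0548), and ATG8E also lost its call without DMSO 1, IBA 2 or IBA 3 (up to 0.0959). Under spike scaling ATG8F and ATG8H were not called (adjusted p = 0.061 and 0.05).

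Some genes of proteases rose and none fell in 3 lists. Of 11 measured subtilases 3 rose (27.3%) and 0 fell, and ATSBT5.2 went from 5.38, 5.24 and 5.40 to 6.71, 6.63 and 6.74, a change of 1.35 (SE 0.12) or 2.56-fold. SBT4.12 rose by 0.47 (SE 0.07) and SBT3.5 by 0.52, while SBTI1.1 had the lowest estimate (-0.40, adjusted p = 0.0979). GAMMA-VPE, a vacuolar processing enzyme that activates vacuolar proteins, rose by 0.54 (SE 0.10), 1 of 4 measured, and DELTA-VPE, dim on both media, changed by -0.03 (adjusted p = 0.906). Serine carboxypeptidase-like genes gave 3 rises among 29 (10.3%), SCPL45 (0.37), scpl28 (0.40) and scpl31 from a dim mean (0.94, with 0.69 left at the dim level), and the lowest estimate was -0.43 for scpl42 (adjusted p = 0.0529). Of the weaker calls, SBT3.5 was lost without DMSO 2, IBA 2 or DMSO 3 (adjusted p up to 0.0768), SCPL45 without IBA 1 or DMSO 2 (up to 0.14), scpl28 without any 1 array but DMSO 1 (up to 0.132) and scpl31 without any 1 of the 6 (up to 0.14). The serine carboxypeptidase-like count was thus 0 to 2 when 1 array was left out, and spike scaling ended the calls of SCPL45 and scpl28 (adjusted p = 0.136 and 0.124).

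Genes linked to abscisic acid and drought gave 6 rises and 0 falls among 13 measured (46.2%), with a median change of 0.11, and the called members all encode dehydrins, other late embryogenesis abundant proteins or RD2. LTI30, a dehydrin, read 9.79, 9.71 and 9.63 on DMSO and 10.92, 10.88 and 11.04 on IBA, a change of 1.23 (SE 0.09, adjusted p = 3.39e-06). Its groups lay over 1 log2 unit apart. LEA4-5 rose by 1.32 (SE 0.20), the dehydrin COR47 by 0.60 (SE 0.08), RD2 by 0.48 (SE 0.08) and the dehydrin AT1G54410 (HIRD11) by 0.30. LEA18 rose by 0.39 with both means dim, so that 0.00 is left at the dim level, and COR27 had the lowest estimate (-0.32, adjusted p = 0.139). LEA18 lost its call without DMSO 1, IBA 1, DMSO 2 or IBA 3 (adjusted p up to 0.0985) and AT1G54410 without IBA 1, DMSO 2 or IBA 3 (up to 0.123). Of 3 measured ethylene genes, RTE1, which acts with the receptor ETR1, rose by 0.42 and ARL (ARGOS-like) by 0.77 (SE 0.14), while the factor EIN3 changed by 0.13 (adjusted p = 0.433). RTE1 lost its call without DMSO 1 or IBA 3 (up to 0.0704). Spike scaling ended the calls of RTE1 (adjusted p = 0.0599), LEA18 (0.113) and AT1G54410 (0.256).

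Few transcription factors were in the lists, with 1 of 142 annotated MYB factors and 1 of 100 NAC factors measured, and few were called. Single calls in small lists are not read as shares above or below the 4.46% higher and 3.69% lower of all genes. BHLH101, a regulator of iron uptake, rose by 1.39 (SE 0.18, adjusted p = 0.000274) from a dim mean, with 0.69 left at the dim level, and it was 1 of 9 measured bHLH factors called. With the zinc transporter ZIP6 (0.60, SE 0.11) it made 2 rises among 7 genes of iron, copper and zinc (28.6%). bZIP44 rose by 0.59 (SE 0.08), 1 of 23 bZIP factors (4.35%). The AP2 factor tny rose by 0.56, 1 of 3 (33.3%), and WRKY22 by 0.57, 1 of 7 (14.3%). WRKY22 lost its call without any 1 array but DMSO 3 (adjusted p up to 0.11). Of 42 measured MADS-box factors 0 rose and 1 fell (2.38%), with 32 of them dim on both media, and 1 of 2 homeobox factors fell.

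A few genes of auxin inactivation and response were lower on IBA in the mutant, not all of which rose in Col-0 (GH3.17, 0.15). Of the 7 measured genes in the list of auxin inactivation UGT74D1 alone rose and 2 fell (28.6%, against 3.69% of all genes). IAGLU, by annotation an indole-3-acetate glucosyltransferase, is outside that list. It rose (0.68), whichever array was left out and under spike scaling (adjusted p = 0.00067). WES1 (GH3.5) read 5.77, 6.14 and 6.11 on DMSO and 4.87, 4.91 and 4.93 on IBA, a change of -1.10 (SE 0.11, adjusted p = 2.86e-05). GH3.17, which conjugates IAA to glutamate, fell from 7.67, 7.72 and 7.64 to 7.30, 7.31 and 7.07 (-0.45, SE 0.08, adjusted p = 0.0028). In both genes every array on IBA lay below every array on DMSO, which a call nearly fixes. Spike scaling ended the calls of GH3.17 (adjusted p = 0.408) and UGT74D1 (0.379), which left WES1 alone called in the list. GH3.3, another IAA-amido synthetase, was dim on both media (2.92, 2.65 and 2.76 on DMSO, 2.51, 2.29 and 2.29 on IBA) and was not called (-0.41, adjusted p = 0.174), against a change of 5.31 in Col-0.

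Among 4 measured genes that start lateral roots 2 fell. LBD16, a transcription factor that auxin raises in founder cells, went from 4.23, 4.14 and 4.02 to 3.33, 3.39 and 3.37 (-0.77, SE 0.10, adjusted p = 0.000378). LBD29 fell by 0.56 between dim means, with 0.00 left at the dim level, and lost its call without DMSO 1, IBA 1, DMSO 2 or IBA 3 (adjusted p up to 0.174) and under spike scaling (0.216). PUCHI (-0.15) and the receptor kinase gene CR4 (-0.06) were not called (adjusted p = 0.717 and 0.732). Of 7 measured Aux/IAA repressors IAA31 fell (-0.71, SE 0.18) to a dim mean, with -0.32 left at the dim level, and lost its call without any 1 array but DMSO 3 (up to 0.109), and IAA18 had the highest estimate (0.28, adjusted p = 0.164). None of 4 auxin biosynthesis genes was called.

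**Figure D3:**
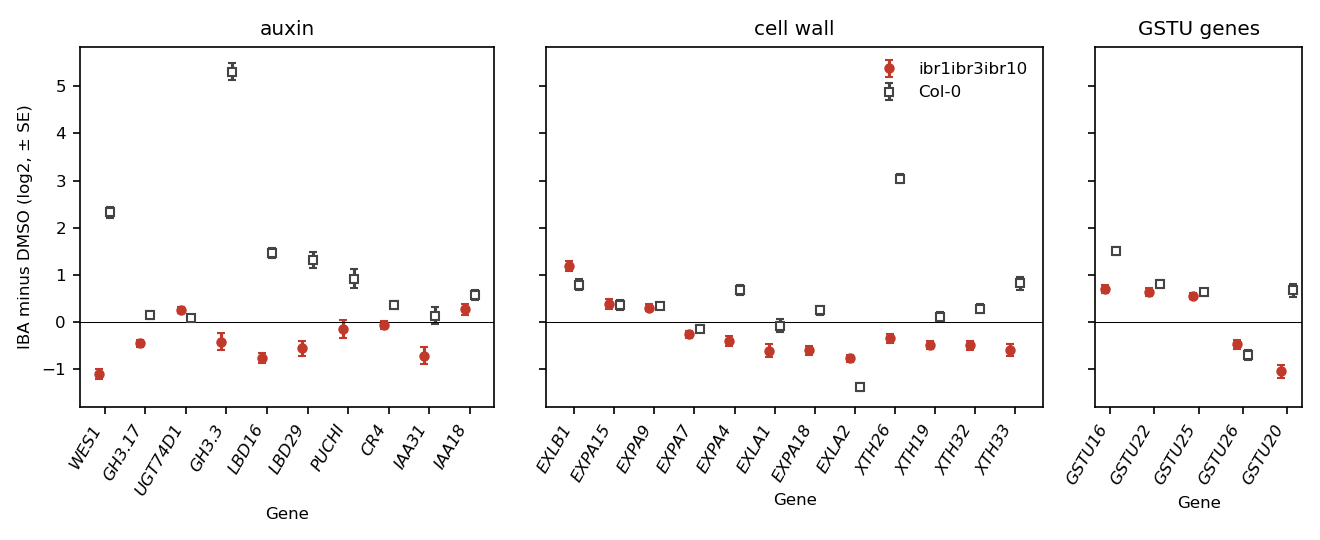
Change on IBA (log2, IBA minus DMSO) with its standard error for named auxin, cell wall and GSTU genes, in ibr1ibr3ibr10 (filled circles) and Col-0 (open squares). GH3.3 and XTH26 stand at 5.31 and 3.04 in Col-0 and slightly below 0 in the mutant, while GSTU25 lies at 0.56 in the mutant and 0.63 in Col-0.

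Cell wall enzymes changed in both directions. Expansins, which loosen walls, gave 3 rises (15.8%) and 5 falls (26.3%) among 19 measured. EXLB1, an expansin-like B protein, rose from 5.37, 5.37 and 5.21 to 6.53, 6.44 and 6.55 (1.19, SE 0.12), with EXPA9 (0.31) and EXPA15 (0.38). EXLA2 fell from 6.21, 6.37 and 6.22 to 5.49, 5.43 and 5.56 (-0.77, SE 0.08), with EXLA1 (-0.60), EXPA18 (-0.60), EXPA4 (-0.40) and EXPA7 (-0.26). The expansin-like B and A members thus stood at opposite ends of the list. Calls were lost for EXPA15 without any 1 of the 6 arrays (adjusted p up to 0.116), for EXLA1 without IBA 1, DMSO 2 or DMSO 3 (up to 0.0565), for EXPA4 without any 1 but DMSO 3 (up to 0.117) and for EXPA7 without any 1 but IBA 2 (up to 0.143). With 1 array left out the expansin falls numbered 2 to 4, and 2 or 3 without any 1 array but IBA 2. Spike scaling left 1 rise, that of EXLB1, and 1 fall, that of EXLA2, and it ended the calls of EXLA1 (adjusted p = 0.0696), EXPA18 (0.103), EXPA4 (0.596), EXPA7 (0.901), EXPA9 (0.254) and EXPA15 (0.106).

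Xyloglucan transglucosylases, which cut and rejoin wall xyloglucan, gave 0 rises and 4 falls among 10 measured (40%), with a median change of -0.24. XTH19 read 9.96, 9.92 and 10.13 on DMSO and 9.44, 9.52 and 9.60 on IBA (-0.48, SE 0.09), and XTH32 changed by -0.49 (SE 0.10) and XTH33 by -0.59 (SE 0.13). XTH26 was called between dim means (-0.34), with 0.00 left at the dim level, and XTH29 had the highest estimate (0.23, adjusted p = 0.105). XTH33 lost its call without DMSO 3 or IBA 3 (adjusted p up to 0.0624), XTH26 without any 1 of the 6 arrays (up to 0.145), and spike scaling ended all 4 calls (adjusted p from 0.108 to 0.747). Class III peroxidases act on wall phenolics. Of the 6 measured in their list 2 rose (33.3%) and 0 fell, AT2G41480 by 0.64 (SE 0.13) and AT5G66390 by 0.34 (SE 0.08). The list was matched by name and took 15 annotated genes. Members known only by a locus can be missing, so these counts are not those of the family. The lack of falls in the list is therefore not read as a trait of the family. AT5G66390 lost its call without DMSO 2, DMSO 3 or IBA 3 (adjusted p up to 0.0834) and under spike scaling (adjusted p = 0.199). Of 50 measured genes of wall polysaccharide synthesis and acetylation 0 rose and 1 fell (2%, against 3.69% of all genes), too few to set the list apart. The fall was that of the endoglucanase gene GH9B6 (-0.71, SE 0.15), which lost its call without DMSO 2 (adjusted p = 0.0539). TBL30 had the highest estimate (0.19, adjusted p = 0.252).

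Several genes of the plastid genome fell and none rose. Of 69 measured, 17 fell (24.6%, against 3.69% of all genes) and 0 rose, and 63 had an estimate below 0 (91.3%, against 54.1% of all genes), with a median of -0.32. Their mean level was 6.27, 6.31 and 6.42 on DMSO and 6.12, 6.01 and 6.00 on IBA in the mutant, without overlap, and 6.33, 6.38 and 6.11 and then 6.22, 6.29 and 6.16 in Col-0, where the groups overlap. The photosystem I gene psaJ changed by -0.40 (SE 0.07, adjusted p = 0.00319), the photosystem II genes psbK by -0.38 and psbI by -0.51, and the RNA polymerase gene rpoC1 by -0.80 (SE 0.18). The ribosomal protein genes rpl20 (-1.02, SE 0.28), rps15 (-0.63) and rps18 (-0.42) and the NADH dehydrogenase-like gene ndhD (-0.70) fell too. The count depends on the arrays: it was 2 to 4 without DMSO 2, DMSO 3 or IBA 3, and 11 without DMSO 1, 9 without IBA 2 and 3 with spike scaling. Of the genes named, psaJ and psbK kept their calls whichever array was left out, and the highest adjusted p of the others lay between 0.0535 for rpoC1, which ended only without DMSO 3, and 0.123 for rpl20. Spike scaling left other calls: it ended those of psaJ (adjusted p = 0.54), psbK (0.648), rps18 (0.444), psbI (0.206) and rps15 (0.0588) and kept rpl20 (0.000466), rpoC1 (0.00506) and ndhD (0.0281). No named plastid gene was thus called under every setting. The labelling primed on poly(A) tails, which most plastid transcripts lack, and its part in these values was not tested.

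Nuclear genes of photosynthesis moved the other way. All 9 measured, which were also the markers for green shoot tissue, had an estimate above 0, and 5 passed the test (55.6%, against 4.46% of all genes), with a median of 0.46. The arrays of these 9 did not overlap either, but the share of all genes without overlap was not counted. RCA, which activates Rubisco, read 5.76, 5.78 and 5.69 on DMSO and 6.34, 6.20 and 6.57 on IBA (0.63, SE 0.11, adjusted p = 0.00223). PSBY changed by 0.55 (SE 0.10), PORB, of chlorophyll synthesis, by 0.46, the antenna protein gene LHCB4.1 by 0.43 and PSAE-1 by 0.35, and the lowest estimate was 0.32 for PSAN (adjusted p = 0.132). The calls of LHCB4.1 (adjusted p up to 0.0816), PORB (up to 0.113) and PSAE-1 (up to 0.146) each ended without DMSO 3 or IBA 3 and without at least 2 of the other arrays, and the rises numbered 2 or 3 without IBA 1, DMSO 2, DMSO 3 or IBA 3. The same 3 calls ended under spike scaling (adjusted p from 0.0626 to 0.149). Their mean over the 9 was 4.50, 4.46 and 4.29 on DMSO and 4.88, 4.80 and 4.95 on IBA in the mutant, and 4.30, 4.20 and 4.36 and then 4.80, 4.66 and 4.82 in Col-0. The higher level on IBA was thus seen in both genotypes on the deposited scale. Under spike scaling RCA (0.64) and LHCB4.1 (0.41) were still called higher in Col-0. PSAN (0.25), PSBY (-0.02), PORB (-0.17) and PSAE-1 (-0.18) were not called there on that scale.

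**Figure D4:**
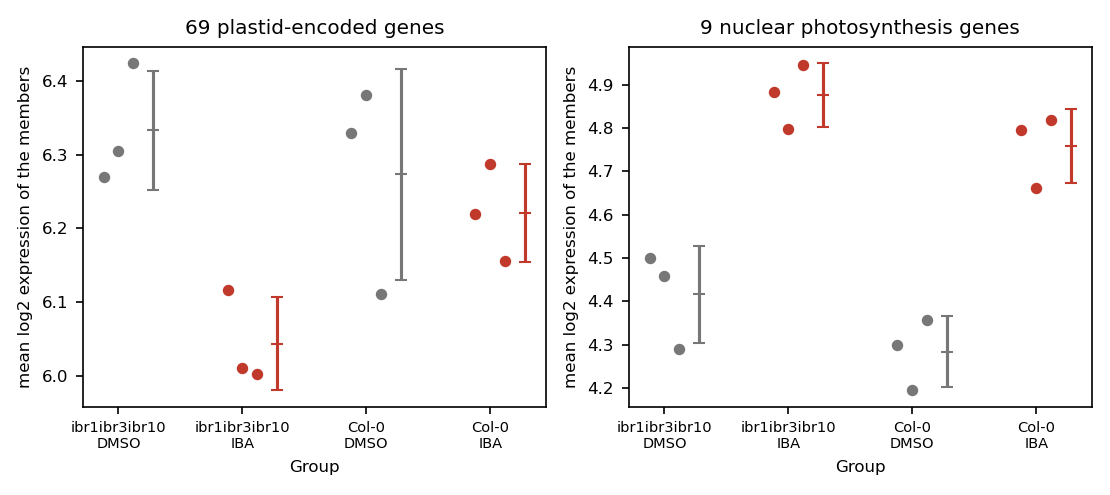
Mean log2 expression over 69 plastid-encoded genes (left) and 9 nuclear photosynthesis genes (right) on each of the 12 arrays, with the mean ± SD of each group of 3 beside the points. In ibr1ibr3ibr10 the plastid-encoded genes go from 6.33 to 6.04 and the nuclear ones from 4.42 to 4.88; the vertical axes do not start at 0.

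Other cell type markers were few. Both measured root hair markers fell, EXPA18 from 8.24, 8.08 and 8.21 to 7.53, 7.57 and 7.63 (-0.60, SE 0.09) and EXPA7 from 8.30, 8.19 and 8.25 to 7.99, 8.05 and 7.93 (-0.26, SE 0.07), and their mean level went from 8.21 ± 0.07 (SD, n = 3) to 7.78 ± 0.03 as the 5 expansins fell. Both are themselves among those expansins. Spike scaling ended both calls (adjusted p = 0.103 and 0.901), and EXPA7 also lost its call without any 1 array but IBA 2 (up to 0.143). The 3 measured stem cell niche markers AGL42 (0.10), BBM (-0.28) and JKD (-0.17) were not called (adjusted p = 0.785, 0.0865 and 0.479). No marker of root cap, xylem, phloem or endodermis in the lists has a probe set that names 1 gene. The part of cell composition in the changes was not tested.

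Phenylpropanoid genes, which make lignin precursors, gave 3 rises (33.3%) and 1 fall (UGT72E3, above) among 9 measured. The laccase gene LAC16 changed by 0.51 (SE 0.11), the cinnamoyl-CoA reductase gene CCR2 by 0.51 (SE 0.10) and HCT, of monolignol synthesis, by 0.27 (SE 0.07). Of 16 measured SWEET sugar carriers SWEET2, a vacuolar carrier, rose (0.74, SE 0.13) and SWEET13 fell (-0.39). Of 18 signalling peptide genes RALFL32 rose (0.62, SE 0.08) and RALFL22 fell (-0.26), and of 11 genes of salicylate and defence the defensin-like gene LCR69 rose (0.71, SE 0.14). Of 22 measured beta-glucosidases 2 rose, BGLU28 (0.45, SE 0.07) and BGLU16 (0.36, SE 0.09), and BGLU15 fell (-0.34, SE 0.07). BGLU28 was dim on both media, with 0.00 left at the dim level, and BGLU16 lost its call without DMSO 2, IBA 2 or IBA 3 (adjusted p up to 0.0916). Calls were lost for LAC16 without DMSO 2 or DMSO 3 (adjusted p up to 0.0608), for HCT without any 1 array but IBA 1 (up to 0.117), for SWEET13 without DMSO 1, IBA 1, DMSO 2 or IBA 3 (up to 0.102) and for RALFL22 without any 1 of the 6 (up to 0.182). Spike scaling ended the calls of HCT (adjusted p = 0.363), SWEET13 (0.612), RALFL22 (0.895), BGLU16 (0.165) and BGLU15 (0.739).

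Several lists of growth and housekeeping genes had no or few calls. None of 7 tubulins, 15 IQD proteins, 6 mitosis genes, 7 exocyst subunits or 12 ubiquitin proteases was called by limma. With 4.46% of all genes higher and 3.69% lower, lists this small can hold no call, so nothing is read from its absence. Of 8 histones HTB2 fell (-0.34, SE 0.09), a call lost without any 1 array but IBA 1 (adjusted p up to 0.0853) and under spike scaling (0.714). Of 15 measured tetraspanins, membrane proteins of the cell surface, TET8 rose (0.65, SE 0.12) and 2 fell (13.3%), TET12 (-0.62, SE 0.12) and TET10 (-0.35, SE 0.10). Of 12 RNA polymerase subunits NRPB12 fell (-0.24, SE 0.07). TET10 and NRPB12 lost their calls without any 1 of the 6 arrays (adjusted p up to 0.194 and 0.124), and spike scaling ended the 3 falls (adjusted p from 0.0619 to 0.913). Of 6 genes of protein folding in the endoplasmic reticulum the co-chaperones ATERDJ3B (-0.37, SE 0.07) and ATERDJ2B (-0.40, SE 0.08) fell (33.3%), with adjusted p = 0.0031 and 0.00763, and spike scaling ended both calls (adjusted p = 0.666 and 0.566).

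The mutant response was set beside that of Col-0, the wild type, which shares no array with it, and the difference of the responses was tested. In Col-0, 1317 genes rose (9.87%) and 1536 fell (11.5%). Of the 596 genes that rose in the mutant, 451 rose in Col-0 (75.7%), 16 fell (2.68%) and 129 were not called. Of the 493 that fell, 217 fell in Col-0 (44%), 44 rose (8.92%) and 232 were not called. The median change of the mutant's rises was 0.51 in the mutant and 0.55 in Col-0, and that of its falls was -0.38 and -0.23. The difference itself was called for 115 of the 596 rises (19.3%) and 106 of the 493 falls (21.5%), against 5.75% of all genes, but these genes were chosen by the mutant arrays, which the difference uses, so nothing is read from that share. Spike scaling moved the median change of all probe sets from -0.01 to 0.08 in the mutant and from -0.04 to -0.48 in Col-0, so every comparison of the genotypes below is relative to the deposited scale.

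Called the same way in both genotypes without a called difference were 381 rises and 196 falls. The largest of these rises were AT1G68620 (2.18 in the mutant, 2.17 in Col-0), FDH (1.98 and 1.45), AT3G61390 (1.94 and 2.37), AT2G43890, AT2G22510 and AT5G59540 (1.47 and 1.40). For FDH the difference was 0.53 (SE 0.21, adjusted p = 0.187) and for AT1G68620 0.01 (SE 0.31, adjusted p = 0.991), which does not show that they respond alike. The falls were led by AT1G66800 (-1.17 and -0.56), AT2G03980 (-1.01 and -0.80), AT2G48080, AT5G09570, AT4G11190 and AT5G49870. Of the families above, GSTU25 (0.56 and 0.63), UGT73B5 (0.69 and 0.86), GRX480 (0.84 and 0.84), IVD (0.71 and 0.66), COR47 (0.60 and 0.70) and ATSBT5.2 (1.35 and 1.21) had no called difference. Under spike scaling the difference was called for FDH (1.06, adjusted p = 0.00236), AT2G43890 (0.86), AT2G22510 (-1.25) and AT5G59540 (0.61). The same held for AT4G11190 (1.03), IVD (0.59) and ATSBT5.2 (0.69), but not for the others named here. On that scale GSTU25 (0.19), COR47 (0.26) and IVD (0.22) were not called in Col-0. The whole class was not counted on that scale.

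A further 70 rises and 21 falls went the same way with a called difference. Most of the named rises were smaller in the mutant: AT3G50400 changed by 1.56 against 3.92 in Col-0, AT5G14130 by 1.60 against 3.02, AT1G21680 by 1.43 against 2.32 and AT1G60750 by 2.15 against 3.03, with AT2G37870 and AT5G08250 the others of the largest 6. UGT73B1 (1.03 against 1.75), GSTU16 (0.70 against 1.51) and LTI30 (1.23 against 1.76) belong here too. Among the falls AT5G04120 (-1.37 against -3.25), AT4G11210 (-0.66 against -2.29), AT1G24735, AT1G67910 and EXLA2 (-0.77 against -1.38) were smaller in the mutant and AT1G14960 was larger (-1.02 against -0.31). The differences of AT1G60750, AT2G37870, AT5G08250, AT1G67910 and LTI30 each lost their call without DMSO 1, IBA 1 or the third Col-0 array on DMSO, and without 1 to 6 others (adjusted p up to 0.116). Spike scaling ended the differences of AT1G60750, AT2G37870, AT5G08250, AT1G21680, UGT73B1, GSTU16 and LTI30 (adjusted p from 0.0531 to 0.962) and that of AT1G14960 (0.486), and it kept those of AT3G50400 (3.06e-05) and AT5G14130 (0.0157). Of the whole class 18 of the 70 rises and 20 of the 21 falls kept a called difference on that scale, which raised all differences.

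Opposite to Col-0 were 16 rises and 44 falls. AT1G34510 changed by -2.61 in the mutant and 1.16 in Col-0, AT1G34330 by -2.11 and 0.43, AT4G25790 by -1.67 and 0.42, AT1G33700 by -1.32 and 0.53, AT3G20460 by -1.21 and 0.39 and AT5G19800 by -1.18 and 0.58. WES1 (-1.10 and 2.33), LBD16 (-0.77 and 1.47), GSTU20 (-1.05 and 0.68), XTH33 (-0.59 and 0.82) and EXPA4 (-0.40 and 0.69) were of this kind. For most of these falls the rise in Col-0 held only on the deposited scale. Under spike scaling the Col-0 change of AT1G34330 was -0.01, that of AT4G25790 -0.02, that of AT3G20460 -0.05, that of AT1G33700 0.09 and that of AT5G19800 0.14, none of them called, and GSTU20 (0.24) and EXPA4 (0.24) were not called in Col-0 either. AT1G34510 (0.71), WES1 (1.88) and LBD16 (1.03) still rose in Col-0 and fell in the mutant. In all, 7 of the 44 falls and 9 of the 16 rises were called in opposite directions on that scale. The difference kept its call for 35 of the 44 and for all 16, but the 16 lie above 0, where the shift favours a call. The reverse, higher in the mutant and lower in Col-0, was seen for AT1G62510, which read 7.03, 6.83 and 6.86 on DMSO and 8.38, 8.35 and 8.54 on IBA in the mutant and changed by -1.38 in Col-0 (difference 2.89, SE 0.18, adjusted p = 4.21e-07). AT1G14550 (1.10 and -1.31), AT3G18450, AT1G49030, AT5G40450 (0.54 and -0.66) and AT4G26880 followed it. The mutant call of AT1G49030 was lost without any 1 array but DMSO 1 or DMSO 2 (adjusted p up to 0.157), and that of AT4G26880 without IBA 1 or DMSO 3 (up to 0.0734).

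Called in the mutant and not in Col-0, with a called difference, were 29 rises and 41 falls. AT2G41810 read 6.51, 6.50 and 5.49 on DMSO and 8.35, 8.19 and 8.37 on IBA in the mutant, with 0.38 in Col-0, and its difference (1.75, SE 0.48, adjusted p = 0.0458) lost its call without any 1 array but DMSO 1, DMSO 2 or the first Col-0 array on IBA (up to 0.126). AT1G71695 (1.04 and -0.18), AT5G43520, AT1G08230, AT3G61490 (0.83 and 0.16) and AT3G13980 (0.80 and -0.01) were the next rises, and AT5G43520 lost its mutant call without IBA 1, DMSO 2 or DMSO 3 (adjusted p up to 0.0617). The largest such falls were AT1G23160 (-1.27 and 0.26), AT4G33730 (-1.24 and -0.07), AT2G19410, AT3G07070 (-1.15 and 0.26), AT5G24880 and AT4G30320 (-1.08 and -0.05). XTH19, XTH32, EXPA18 and GH3.17 were also lower in the mutant alone with a called difference, of -0.60, -0.78, -0.85 and -0.60. Spike scaling ended all 4 of these differences (adjusted p from 0.239 to 0.819) and the mutant calls of the 4 genes. It also ended the differences of AT5G24880 and AT4G30320 (adjusted p = 0.0957 and 0.0782). In the whole class the difference stayed called for all 29 rises and for 6 of the 41 falls, which follows the direction of the shift. The remaining 100 rises and 191 falls were not called in Col-0 and had no called difference, so whether they differ between the genotypes was not resolved.

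**Figure D5:**
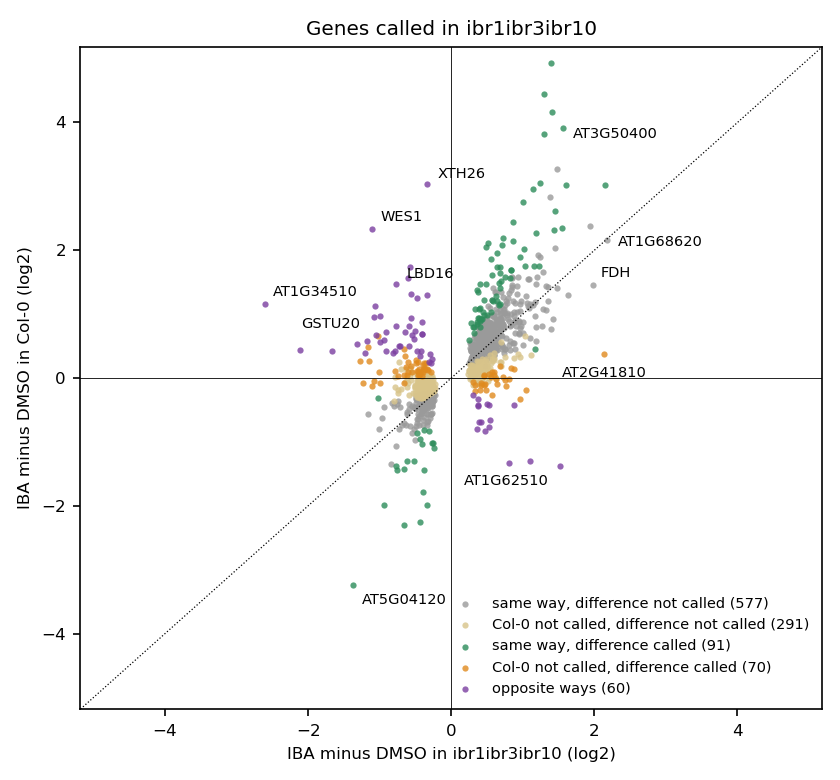
Change on IBA in Col-0 against that in ibr1ibr3ibr10 (both log2, IBA minus DMSO) for the 1089 genes called in the mutant, coloured by class with the number of genes; the dotted line marks equal changes. Of the genes plotted, 381 rises and 196 falls went the same way without a called difference, and 60 genes, among them WES1 and AT1G34510, lie in the opposite quadrants.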

How the data were processed

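RNA of pooled root tips was hybridised to Affymetrix ATH1 arrays after labelling of 100 ng with a 3′ kit that primes on poly(A), per the labels' protocols. The deposited values are log2 intensities, which the submitters' processing notes credit to RMA and affy 1.40.0, and further steps are not given in the sources used here. They span 1.40 to 13.44, and arrays give no read depth, so the 3 arrays per group limit the precision.

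limma 3.58.1, run in R 4.3.3, fitted the means of the 4 groups over the 12 arrays, with 8 residual degrees of freedom and 5.62 from its prior on the variance. Benjamini-Hochberg adjustment ran over 22746 non-control probe sets, and adjusted p under 0.05 was called. Genes came from probe sets that the platform annotation gives 1 gene, taking the probe set with the highest mean over the 12 arrays. Annotation was updated through RefSeq gene tables. Fold is 2 to the power of the size of the log2 change. The code was tested on simulated data.

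The comparison, the genes and the lists were chosen with earlier results of these data known. Named were the 15 largest rises and falls whose arrays do not overlap, up to 6 called members of a list with its extremes, and the 6 largest in each class of response beside Col-0; of lists with few calls, only some are named. Genes put in a list by a wrong symbol match were removed by identity. Lists were matched by name, so family members known only by a locus could be missed. The lists held 836 measured genes of 4176 in the annotation. The alternatives were 2 replicate blocks, 3 scalings, a filter on dim probe sets, other moderation, 1 probe set per gene, a threshold of 0.01, the mutant arrays alone and leaving out each array. Same-numbered DMSO and IBA arrays of the mutant correlated at -0.00387, 0.0661 and 0.0605 in their deviations, so the numbers were not taken as pairs. Promoter motifs were not analysed here.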

Additional observations from a re-analysis of the deposited data

Results flagged for a closer look

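For the genes below the response to IBA differed between ibr1ibr3ibr10 and Col-0 by limma's test of the difference (adjusted p under 0.05 over all probe sets). The values are log2 differences, below 0 where the change on IBA was lower in the mutant than in Col-0. Some of these genes also started at another level on DMSO, higher in the mutant for AT3G50400 (2.071) and lower for AT5G04120 (-0.925).

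Among genes of auxin response the difference was -5.72 for GH3.3, -3.43 for WES1, -0.60 for GH3.17, -2.24 for LBD16, -1.88 for LBD29, -1.07 for PUCHI and -0.48 for IAGLU. Among cell wall genes it was -3.38 for XTH26, -1.41 for XTH33, -0.78 for XTH32, -0.60 for XTH19, -1.09 for EXPA4, -0.85 for EXPA18 and 0.61 for EXLA2, with -1.60 for the laccase gene LAC16. Among genes of detoxification it was -1.73 for GSTU20, -0.82 for GSTU16, -0.72 for UGT73B1, -0.56 for UGT87A2 and 0.69 for CYP84A4.

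Among genes of drought, breakdown and regulation the difference was -0.53 for LTI30, -0.50 for AT1G54410, -0.60 for ATG8F, -0.46 for ATG8G, -1.08 for scpl28 and -0.62 for bZIP44. It was -1.37 for LCR69, 0.40 for BGLU28 (dim on both media in the mutant), -0.67 for TET12 and -0.59 for SWEET13, and for the plastid genes -1.69 for rpl20 and -0.79 for rps15.

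Of the genes named for the size of their change, those with a lower value in the mutant were AT1G34510 (-3.76), AT1G34330 (-2.54), AT3G50400 (-2.36), AT4G25790 (-2.10), AT1G33700 (-1.85), AT5G19800 (-1.76), AT2G19410 (-1.65), AT3G20460 (-1.61) and AT1G23160 (-1.53). So were AT5G14130 (-1.42), AT3G07070 (-1.41), AT4G33730 (-1.17), AT5G08250 (-1.17), AT4G30320 (-1.03), AT5G24880 (-0.98), AT1G21680 (-0.89), AT1G60750 (-0.87), AT2G37870 (-0.81) and AT1G14960 (-0.72). Those with a higher value were AT1G62510 (2.89), AT1G14550 (2.41), AT1G49030 (2.14), AT5G04120 (1.88), AT2G41810 (1.75), AT4G11210 (1.64), AT3G18450 (1.31), AT5G43520 (1.28) and AT1G71695 (1.22). So were AT5G40450 (1.19), AT1G24735 (1.05), AT4G26880 (0.94), AT3G13980 (0.81), AT1G08230 (0.74), AT1G67910 (0.67) and AT3G61490 (0.67).

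Single arrays ended the call of the difference for ATG8F (the second Col-0 array on IBA or the third on DMSO, adjusted p up to 0.0508), rpl20 (the second Col-0 array on IBA, 0.0547) and BGLU28 (DMSO 1, 0.0577). At least 4 arrays did so for UGT87A2, IAGLU, CYP84A4, ATG8G, PUCHI, rps15, SWEET13, TET12, AT5G43520 and AT1G08230, each with an adjusted p between 0.0552 and 0.0939 at most.

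Under spike scaling 26 of these 67 differences were not called. The cause was not tested.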

How the results depend on the processing

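Of 159 named genes called in the mutant, 104 kept their call whichever of its 6 arrays was left out, 50 lost it without at least 2 of them and 55 lost it under spike scaling. Over all probe sets the rises numbered 1248 and the falls 881. With 1 array left out they numbered 779 to 1065 and 389 to 781. Spike scaling gave 798 and 149, 1 probe set per gene 563 and 434, and the threshold of 0.01 gave 687 and 312. Moderation with trend and robust settings gave 1378 falls. The difference of the responses was higher in 672 probe sets and lower in 806. With 1 array left out these were 494 to 698 and 610 to 922. Spike scaling gave 11637 and 237, 1 probe set per gene 369 and 365, and the threshold of 0.01 gave 328 and 423. Fewer probe sets enter at 1 per gene; for spike scaling the cause was not tested beyond the shift of the medians.

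Under spike scaling the mutant change was 0.003 for PPDK, 0.067 for PEX4, 0.085 for ATG8G, 0.070 for DELTA-VPE and 0.034 for CR4. The difference of the responses, called and below 0 on the deposited scale, became 0.060 for IAGLU, 0.013 for LTI30, 0.037 for AT1G54410 and 0.077 for ATG8G. With 1 array left out, uncalled changes in the mutant also turned sign. MCCB ranged from -0.034 (DMSO 1) to 0.075, with -0.013 without IBA 2, and PEX4 from -0.065 to 0.017 (IBA 2). ATG8G ranged from -0.062 to 0.020 (DMSO 3), with 0.004 without DMSO 1, and DELTA-VPE from -0.059 to 0.027 (IBA 2).

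In the main fit the replicate numbers were not used as pairs. Same-numbered arrays of the mutant and Col-0 on the same medium correlated at 0.0229 to 0.165 in their deviations, and what they share was not tested. With the replicate block, 1251 probe sets rose and 868 fell in the mutant, and the difference was higher in 666 and lower in 774. With number and medium as a random block (correlation 0.0852) the counts were 1250, 883, 779 and 918.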
